A study of Mus musculus with 8 samples.

Results

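The transcriptome described here is that of untreated mouse embryonic fibroblasts (MEFs) labelled TAF4-/-, and its members are the 3 libraries of 8 in the series that the labels place in the untreated group. Both other groups were given retinoic acid and are not used, so every value below is a level within one condition and no test between conditions was made. The cells are immortalised MEFs on the C57BL/6 background, without treatment and labelled with a time of 12 h. By the study's methods, Taf4-/- MEFs came from Taf4 lox/- MEFs by Cre deletion of the floxed allele and were grown in serum-containing medium. The labels do not say how many lines or cultures gave these libraries, so they need not stand for MEFs in general. The sample titles carry cl1, which resembles the name of the parental line, and the genotype label was followed. Neither the labels nor the methods say that the replicates were separate cultures, so their spread may be technical.

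TFIID is the complex of TATA-binding protein and TBP-associated factors (TAFs) that recognises core promoters and positions RNA polymerase II, and TAF4 holds part of this complex together. TAF4B is a paralogue that can take its place. Fibroblasts are mesenchymal cells that secrete and remodel the extracellular matrix (ECM), and they are known for high levels of fibrillar collagens, fibronectin, vimentin and the actin cytoskeleton. Immortalised MEFs also proliferate rapidly, which calls for histones, replication factors and ribosomes.

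Expression was given as normalised reads per gene for 22200 Ensembl genes. All libraries shared one set of values, from 1 to 165593 because the authors had quantile normalised them, and the depth of each library is therefore unknown. A value of 1 is the floor of the scale, taken by 2883 genes in each library and by 948 genes in all 3. The replicates ranked the 12667 genes with a mean of at least 10 almost alike, with Spearman's rho across genes of 0.991 between replicates 1 and 2, 0.987 between 1 and 3, and 0.981 between 2 and 3. Genes are not independent replicates, and these coefficients share the common scale.

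The gene named in the label was read first. Taf4a, the symbol of Taf4 in the table (ENSMUSG00000039117, mm9 chr2:179646851-179711351, minus strand), stood at 1297, 1055 and 1403 normalised reads in replicates 1, 2 and 3, a mean of 1252 ± 178 (SD, n = 3). All 3 values were well above the floor, and Taf4a ranked 1481 of the 22200 genes by reads per gene. Its paralogue Taf4b stood at 63.6, 72.6 and 62.4 normalised reads. A library that reads the 3′ part of a transcript need not report on a deleted exon, so the Taf4a level does not check the genotype.

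The labels describe tag libraries, in which cDNA bound at its 3′ end is cut at GATC by DpnII and a fragment of 17 bases beside the site is read, whereas the study's methods describe fragmented RNA. The values ran with the presence of GATC. Among protein-coding genes, 4 of the 281 without a GATC in any annotated transcript (1.42%) reached a mean of 100, against 7856 of the 18776 with at least 1 site (41.8%). Genes without a site are short, so lengths were matched: from 0.3 to 0.8 kb of exon the counts were 1 of 108 genes without a site and 35 of 243 with 1 site, and from 0.8 to 1.2 kb they were 0 of 58 and 43 of 217. The share of genes that reached 100 also rose with length, from 14.4% at 0.3 to 0.8 kb to 43.3% at 3 to 5 kb among genes with 1 site, and from 14.3% to 49.0% among those with 2 or more. Among genes already at a mean of 10 it was different: Spearman's rho between level and exonic length was -0.03 over 12208 coding genes with a mean of at least 10. The median level was 209 normalised reads for those under 1 kb and 184.5 for those over 8 kb. Division by length therefore lowers the long genes among these. Reads per kb of exon are used to compare genes unless stated, with reads per gene beside them for the highest genes and some families. Shares given per kb only are thus lowered for members with long exons.

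The tag nearest to the 3′ end is shown for genes at both ends of the scale, as these sequences bear on which levels can be read. Each is the GATC site, in capitals, and the 16 bases 3′ of it in the transcript, read from the mm9 transcripts.
AC112142.4: GATCgcctggagaaatgacc
S100a6: GATCtacaatgaagctctga
Vim: GATCaatgagacttctcagc
Col1a1: GATCtctctctttcttctga
Rpl8: GATCgtgtgttgtctggagg
Taf4a: GATCagtattttttacgaca
Gapdh: GATCtgacgtgccgcctgga
Ppia: GATCaccatttccgactgtg
Eef1a1: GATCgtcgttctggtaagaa
Rpl26: GATCgagaagatgcaggagt
Thy1: GATCctctcccccactggca
Lum: GATCaagcatctgcgcttgg

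The tags of S100a6 (chr3:90418220-90418239, plus strand), Vim (chr2:13504102-13504121, plus) and Rpl8 (chr15:76735300-76735319, plus) lie in coding sequence, and that of Col1a1 (chr11:94814121-94814140, plus) in an untranslated part of an exon; each of these 4 tags occurs at 1 place in mm9. The tag of Gapdh (chr6:125112503-125112522, minus) occurs at 45 places, that of Ppia (chr11:6319583-6319602, plus) at 13, that of Eef1a1 (chr9:78326872-78326891, minus) at 7 and that of Rpl26 (chr11:68717974-68717993, plus) at 5. The Taf4a tag (chr2:179647048-179647067, minus, in an untranslated part of an exon) occurs at 2 places. Thy1 (chr9:43856546-43856565, plus) and Lum (chr10:97034583-97034602, plus) have tags found at 1 place.

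Several genes that serve as reference genes in expression assays were near the floor. Gapdh, a glycolytic enzyme, stood at 3.88, 5.88 and 2.88 normalised reads, and Ppia, a prolyl isomerase, at 6.00, 1.5 and 3.38. The elongation factor gene Eef1a1 had 10.4, 3.38 and 11.3 normalised reads. These 3 genes are textbook examples of abundant transcripts with many processed pseudogenes, and each has a tag found at several places. Among cytosolic ribosomal protein genes, 14 of 25 with a 20-base tag at 1 place reached a mean of 100, against 8 of 45 with a tag at several places. With tags of 17 bases the counts were 9 of 17 and 13 of 54. Over all coding genes with 20-base tags the contrast was smaller, with 7131 of 16442 (43.4%) against 554 of 1787 (31.0%). A mean of 1000 was reached by 1586 of the former and 211 of the latter, so a tag at several places did not in general go with a low level. The relation had exceptions in either direction: Pgk1 and Rps29 have tags at several places and were among the highest genes, while Hsp90aa1, a heat shock protein with a tag at 1 place, stood at 1.25, 1.5 and 1.00 normalised reads. A value near the floor was thus not read as absence of the transcript, and the counting of reads with several places is not given in the sources used here.

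The transcriptome was dominated by few genes. The 10 highest genes held 9.67% ± 0.10 of all normalised reads (SD, n = 3), the 100 highest 27.7% ± 0.05 and the 1000 highest 61.0% ± 0.05, and 530 genes together held 50% of the sum. All 8 libraries share the same set of values, so these shares and their small SDs follow from the common scale. They do not measure how alike the untreated libraries are. Of the 100 highest genes in each library, 86 were shared by all 3. Protein-coding genes carried 99.7% of the sum. In the annotation 12500 of 20158 coding genes (62.0%) had a mean of at least 10, compared with 109 of 1160 processed pseudogenes (9.40%).

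The highest gene by reads per gene and per kb was AC112142.4 (ENSMUSG00000060143, on chromosome 14), which the file describes as 60S ribosomal protein L41, with 165593, 134320 and 165593 normalised reads. Its exons span 377 bases and its tag occurs at 9 places in mm9, so the reads may come from any of these loci. S100a6, a small calcium-binding protein, followed with 134320, 165593 and 134320 normalised reads. Replicate 2 was the lowest library for the first of these genes and the highest for the second, since the common scale turns a change of rank at the top into an exchange of values.

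Next by reads per gene came mt-Nd1, a mitochondrially encoded subunit of complex I, at 110139, 102782 and 110139 normalised reads, and the intermediate filament gene Vim at 102782, 110139 and 102782. Tuba1b (alpha-tubulin) had a mean of 89717 ± 6340 and mt-Cytb (cytochrome b of complex III) one of 86056 ± 6340. The glycolytic genes Pgk1 and Ldha, encoding phosphoglycerate kinase and the A chain of lactate dehydrogenase, stood at 61996 ± 5770 and 53059 ± 2604. Replicate values overlapped between mt-Nd1 and Vim and between Tuba1b and mt-Cytb. They did not overlap between S100a6 and mt-Nd1, Vim and Tuba1b, or mt-Cytb and Pgk1.

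**Figure D1:**
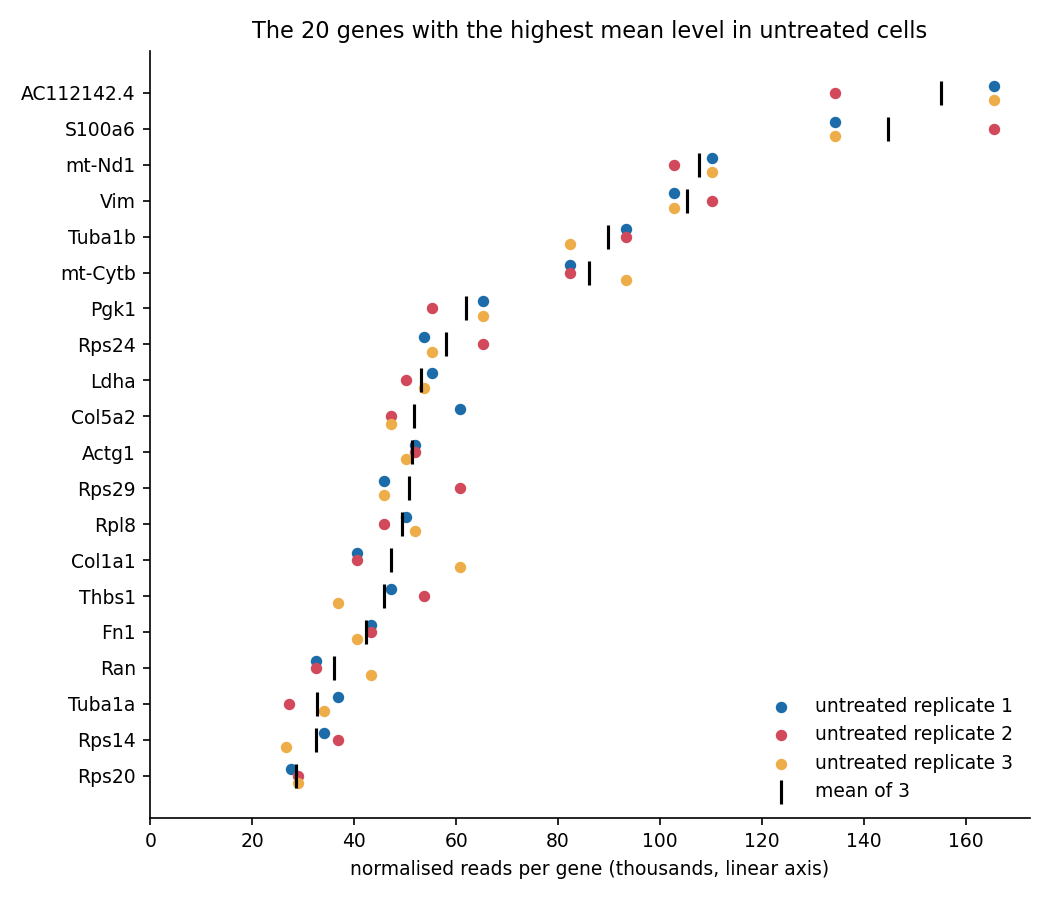
Normalised reads per gene (x axis in units of 1000 reads, linear) of the 20 genes with the highest mean in untreated cells (y axis). Coloured points are the 3 untreated replicates and the black tick is their mean. The replicates of AC112142.4 and S100a6 lie between 134320 and 165593, above the values of all genes from mt-Nd1 down, which reach 110139 at most.

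Among the 20 highest genes, 4 encode components of the ECM. Col5a2, a chain of type V collagen, stood at 60831, 47208 and 47208 normalised reads, and Col1a1, the alpha-1 chain of type I collagen, at 40456, 40456 and 60831. Thbs1 (thrombospondin) had 47208, 53627 and 36832 normalised reads and Fn1 (fibronectin) 43233, 43233 and 40456. Replicate 3 was highest for Col1a1 and lowest for Thbs1 and Fn1, so it did not move the matrix genes in one direction. The other genes of this set were Rps24, Actg1, Rps29, Rpl8, Ran, Tuba1a, Rps14 and Rps20, with means from 28585 (Rps20) to 58096 (Rps24).

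Per kb of exon, short genes moved up. The order opened with AC112142.4, S100a6 and mt-Nd1 and continued with mt-Cytb, Rps29, Rps24, Rpl8, Tuba1b and Vim. Rps27 (34590 reads per kb), Rps27l (28987), Cox8a (28446), Rps16 (27210), Cd63, Hint1, Aprt and mt-Nd2 were among the 20 highest genes on this scale but not by reads per gene. Col1a1 (7199 reads per kb), Col5a2 (5396) and Fn1 (5070), whose exons span several kb, were not.

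Markers of the labelled cell type were high, with 4 exceptions. Of 19 fibroblast markers, 15 had a mean of at least 100 (over all genes, 7985 of 22200 or 36.0% did), and the list's median lay at the 89.8th percentile of reads per kb. Sparc, a matricellular protein, stood at 19179 ± 1525 normalised reads, Col3a1 at 21176 ± 1083 and Col1a2 at 27243 ± 1316. Of the mesenchymal transcription factor genes, Prrx1 (1214, 1211 and 1173 normalised reads) varied little and Twist1 had 833, 754 and 902. Pdgfrb, a receptor for platelet-derived growth factor, had 765, 914 and 740 normalised reads, and Pdgfra 216, 201 and 202.

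The exceptions were Thy1, a surface glycoprotein, at 1.5, 2.38 and 1.00 normalised reads, Lum (lumican) at 1.88, 1.5 and 1.00, Dcn (decorin) at 4.88, 1.00 and 4.88, and Fap (fibroblast activation protein) at 8.75, 12.3 and 6.50. All 4 have a 3′ tag found at 1 place. The small leucine-rich proteoglycans thus split, since Bgn (biglycan) of the same family stood at 11139, 11076 and 10734 normalised reads.

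Markers of other cell types differed by lineage, and 57.1% of all genes had a mean of at least 10. The share was above this for smooth muscle markers (6 of 6) and near it for adipocyte (3 of 5) and cartilage and bone markers (4 of 7). It was below this for neural markers (2 of 7) and for markers of pluripotent and germ cells (2 of 7). Epithelial markers reached a mean of 10 in 3 of 12 cases (Trp63, Grhl2 and Cdh1, from 18.9 to 48.1 normalised reads), and the whole list summed to 105, 104 and 139 normalised reads in replicates 1, 2 and 3. Haematopoietic markers did so in 2 of 10 cases (sums 73.4, 40.5 and 50.4), endothelial in 4 of 8 (82.9, 62.0 and 115), skeletal muscle in 1 of 6 (34.5, 30.6 and 39.5) and melanocyte markers in 2 of 4 (51.3, 42.6 and 48.8). Some markers had means below 2 (Krt5, Cldn4, Tyrobp, Cldn5, Myog, Sox10 and Mlana) and others of the same lists did not, with 10.8 for Cdh5, 13.5 for Tyr, 27.6 for Vwf and 29.4 for Mitf. Dppa3 was at 1 in all 3 libraries.

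A background for long genes was estimated from the table, since no read positions were examined. Among 943 genes of at least 200 kb, the 25th percentile was 91.7, 71.9 and 138 normalised reads per Mb of genomic span in replicates 1, 2 and 3. This estimate, taken over the span of a gene came to 112% of the mean of Tek, 56.8% of that of Pecam1 and 51.0% of that of Vwf. After its subtraction 1 of 8 endothelial markers and 0 of 4 melanocyte markers reached a mean of 10, and 2 of the 6 smooth muscle markers no longer did.

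A few genes of other lineages stood out from their lists. Tagln (transgelin) and Acta2 (smooth muscle actin), which contractile fibroblasts also express, had means of 16502 ± 928 and 13214 ± 1476 normalised reads, Smtn (smoothelin) and Cnn1 (calponin) means of 387 and 218, and Myh11 and Myocd means of 13.1 and 12.2, so that all 6 smooth muscle markers were at 10 or above. Runx2, a regulator of bone formation, had 557, 482 and 638 normalised reads, beside Sp7 at 3.50, 1.00 and 2.38 and Sox9 at 3.38, 4.38 and 6.63. Mtap2 (MAP2, a microtubule-associated protein of neurons) stood at 283, 333 and 273, Sox2 at 101, 73.4 and 95.8, and Fabp4, a lipid carrier of adipocytes, at 117, 99.6 and 118. The background estimate came to 9.06% of the mean of Mtap2, 5.73% of that of Runx2 and less for Tagln, Acta2, Sox2 and Fabp4, but to 74.4% for Myh11 and 76.9% for Myocd.

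**Figure D2:**
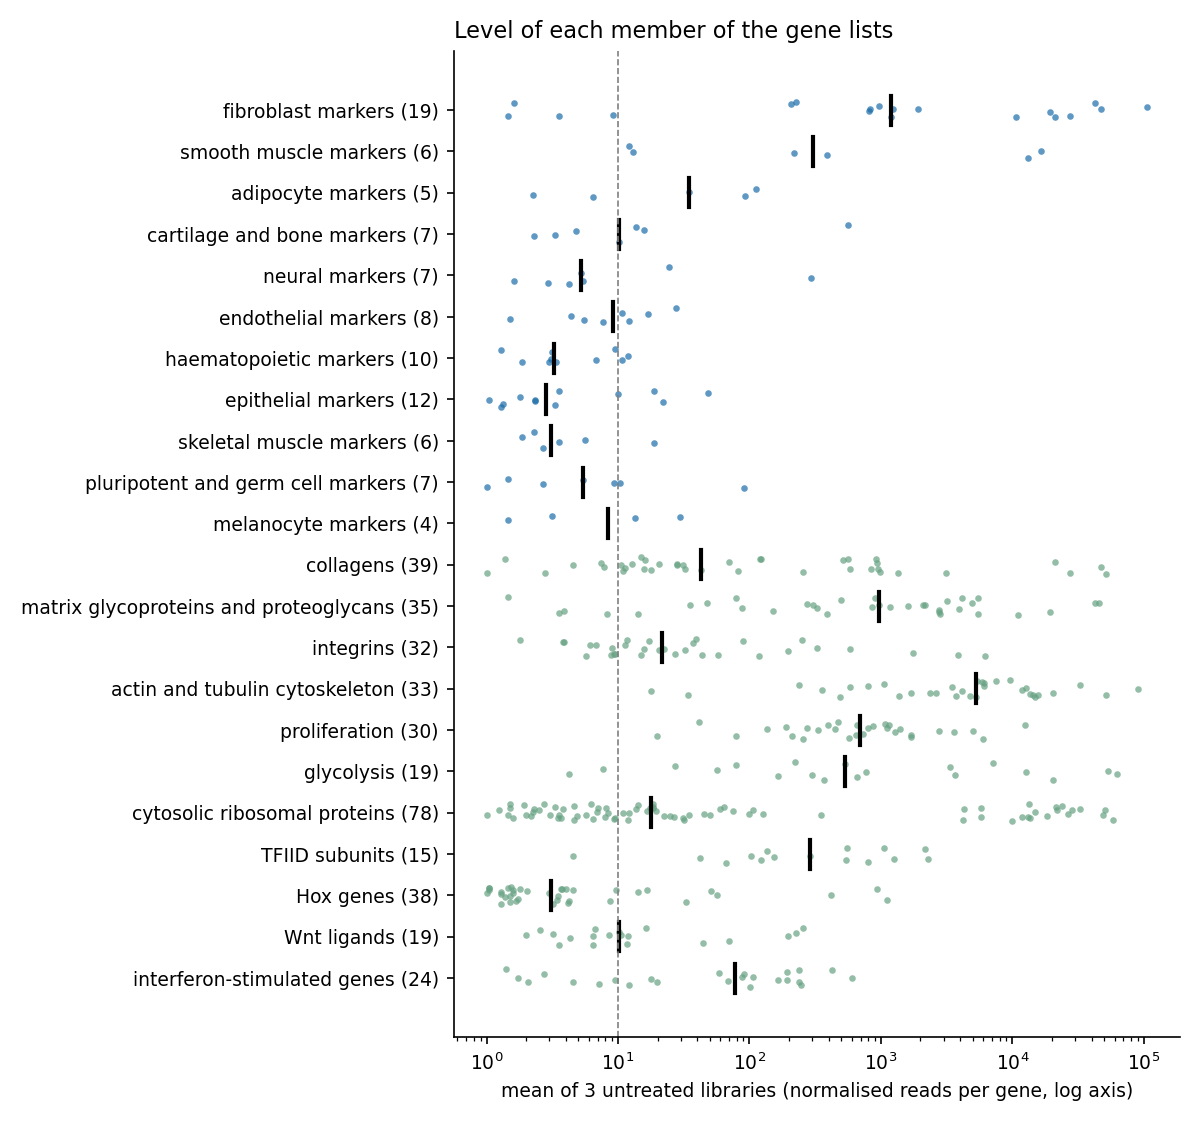
Mean of the 3 untreated libraries in normalised reads per gene (x axis, log scale) for each member of 22 gene lists (y axis, number of genes in brackets). Each point is a gene, blue for cell type markers and green for other lists, the black bar is the median of the list and the dashed line marks a mean of 10; fibroblast markers have their median at 1199, and epithelial markers at 2.83.

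Retained Hox expression gives a record of position along the body. Of 38 Hox genes, 8 had a mean of at least 10, against 57.1% of all genes. Hoxa11 stood at 1089, 1135 and 1132 normalised reads, Hoxa10 at 955, 1065 and 770 and Hoxd13 at 436, 487 and 319. They encode factors of the posterior groups that pattern the limb and trunk. Hoxa5, Hoxa3, Hoxa4 and Hoxa13 were lower, with means of 50.8, 33.1, 16.7 and 14.3. Genes of the HoxB and HoxC clusters were all below 10, among them Hoxb5 at 1 in all 3 libraries.

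Genes for the ECM were unequal within each family. Of 39 collagens, 33 had a mean of at least 10 and 6 one of at least 1000, with 1.69% ± 0.13 of all normalised reads. Over all genes, 57.1% reached a mean of 10 and 8.37% one of 1000. Per kb of exon, Col1a1 led, and Col5a2, Col3a1, Col1a2 and Col5a1 (370 reads per kb) followed, all chains of fibrillar collagens I, III and V. Col4a1, Col4a2 and Col4a5, of basement membrane collagen IV, had means of 946 ± 137, 989 ± 177 and 844 ± 147 normalised reads and did not differ beyond their spread. Col6a3 and Col6a2, chains of the microfibrillar collagen VI, held 50.8% ± 5.45 and 49.2% ± 5.45 of their summed reads per kb, and Col6a1 was not found in the table. This near equality depends on the length used. Per gene Col6a3 (1438.5, 1218 and 1381 normalised reads) was above Col6a2 (752, 942 and 1042) in every library, with 59.7% ± 5.19 of the pair. Divided by the longest transcript, its share was 44.8%. Subtraction of the background estimate left 22 of the 39 collagens at 10 or above.

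Besides Thbs1 and Fn1, the matrix glycoprotein genes Sparc (5696 reads per kb), Mgp (5282), Spp1 (3352) and Bgn (3083) were high. Of the 35 genes in this list, 31 had a mean of at least 10, against 57.1% of all genes. Spp1 (osteopontin) stood at 5051, 4814 and 6707 normalised reads. Thbs2, Eln (elastin) and Dcn were below 10. Fibrillin was mainly Fbn1, with 85.5% ± 3.48 of the reads per kb of Fbn1 and Fbn2.

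By reads per gene, the list of matrix proteases and inhibitors was led by Timp3 and Timp1. Of its 24 genes, 20 had a mean of at least 10, against 57.1% of all genes. Timp1, an inhibitor of matrix metalloproteinases, stood at 10073, 14116 and 7606 normalised reads and Timp3 at 14116, 12578 and 13471. Adamts1, a secreted protease, had 5726, 5811 and 4445 normalised reads. The membrane protease gene Mmp14 had 2497, 2516 and 2270, Mmp3 668, 784 and 805, and Mmp9 1.00, 1.00 and 3.38. Timp1 and Timp3 changed places with the scale: per kb Timp1 held 83.2% ± 3.83 of the family, and per gene Timp3 held 51.2% ± 8.13 against 39.4% ± 7.37 for Timp1, a difference within the spread.

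Receptors for the matrix were led by Itgb5 (6034, 4704 and 7987 normalised reads), Itgb1 (3960, 4053 and 3631) and Itga5 (1701, 1717 and 1851). Itga5 and Itgb1 form the classical fibronectin receptor. Itgav stood at 195 ± 21.8, and Itgax, a leukocyte integrin, at 3.79. Of the 32 genes whose symbols begin with Itga or Itgb, which include integrin-binding proteins, 22 had a mean of at least 10, against 57.1% of all genes.

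The cytoskeleton took 3.72% ± 0.12 of all normalised reads. All 33 genes of its list had a mean of at least 10, against 57.1% of all genes. Actg1, cytoplasmic gamma-actin, stood at 51846, 51846 and 50218, while Actb, cytoplasmic beta-actin, stood at 478, 613 and 384. Both have a tag at several places in the genome, so the shares of the pair cannot be separated from the counting. Cofilin (Cfl1), thymosin beta-4 (Tmsb4x) and profilin (Pfn1), which control actin turnover, had 13005, 8588 and 7293 reads per kb. Nonmuscle myosin heavy chain was mainly Myh9, with 77.8% ± 3.83 of the family's reads per kb, and filamin mainly Flna, with 62.0% ± 3.76.

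All 30 genes of the proliferation list had a mean of at least 10, and 27 one of at least 100. Over all genes, 57.1% and 36.0% did. Cdc2a (Cdk1, the mitotic kinase) stood at 12418, 9451 and 15426 normalised reads, Pcna (the sliding clamp of DNA polymerase) at 6408, 6736 and 4894, and Rrm2 (ribonucleotide reductase) at 5388, 4333 and 5204. The helicase genes Mcm7, Mcm5, Mcm4 and Mcm3 had means from 1397 to 3595. The lowest members were Plk1 (25.5, 19.3 and 14.4) and Cdc20 (43.5, 55.5 and 24.6), followed by Top2a and Mki67. Each of these 4 has a tag at several places, but so have Pcna and Mcm7. Of 8 proliferation genes with such a tag, 5 had a mean of at least 100.

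In the G1 phase, Cdk4 stood at 7831, 6948 and 6489 normalised reads and Cdk6 at 116, 113 and 136, so Cdk4 held 98.5% ± 0.27 of the pair's reads per kb. Among D cyclins Ccnd3 held 55.5% ± 4.68 and Ccnd1 42.9% ± 4.60 per kb. Per gene the order of these cyclins was the reverse, with 55.0% ± 4.52 for Ccnd1. Ccnd2 held 1.57% ± 0.14. The retinoblastoma family was shared, with 48.9% ± 2.83 of the reads per kb in Rbl2, 38.1% ± 2.75 in Rbl1 and 13.0% ± 0.92 in Rb1.

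Inhibitors of these kinases were present as well. Cdkn2a, whose locus encodes p16INK4a and p19ARF, stood at 710, 955 and 535 normalised reads, Cdkn2c at 595, 623 and 922 and Cdkn2b at 316, 328 and 403. Trp53 had 957, 1074 and 964. Cdkn1b stood at 30.2 ± 2.57 and Cdkn1c (1.88, 2.50 and 1.5) near the floor. Reads per gene do not separate the 2 proteins of Cdkn2a.

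Genes of energy metabolism were at the top of the scale. Of the mitochondrial genome, 5 genes matched the list and held 2.38% ± 0.03 of all normalised reads, and 81 nuclear genes for oxidative phosphorylation held 2.33% ± 0.02. The latter had their median at the 94.8th percentile per kb, although 19 of the 81 were below a mean of 10. Over all genes, 42.9% were. Of these 81 genes, 6 have no GATC in their transcripts and 0 of the 6 reached a mean of 100, against 39 of 54 with a tag at 1 place.

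Glycolysis took 1.76% ± 0.08 of all normalised reads. Besides Pgk1 and Ldha, Pgam1 (20918, 17270 and 23391) and the pyruvate kinase gene Pkm2 (10829, 15085 and 12418) led the list, and the glucose transporter gene Slc2a1 had 832, 695 and 785 normalised reads. Lactate dehydrogenase was nearly all Ldha, with 98.9% ± 0.12 of the reads per kb against Ldhb. Eno1, with a tag at several places, stood at 27.8, 34.1 and 19.5, below Eno3 (145, 177 and 175), an isoform known from muscle. Pgk1 and Pgam1 also have tags at several places, and 4 of 6 such genes of the list had a mean of at least 100.

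Cytosolic ribosomal proteins took 4.55% ± 0.21 of all normalised reads, the largest share of the classes examined, but from few of their genes: 20 of 78 had a mean of at least 1000, 3 lay between 100 and 1000, and 55 were below 100. Over all genes, 8.37% had a mean of at least 1000 and 64.0% were below 100. Rps29, Rps24, Rpl8, Rps27 and Rps27l were the highest of the list per kb. Rpl26 was at 1 in all 3 libraries, and Rps28 stood at 1.5, 1.88 and 1.00. The means of the listed genes thus ran from 1 (Rpl26) to 58096 (Rps24). The list was matched by symbol, so AC112142.4 (mean 155169) and AC117232.3 (8624), which the file describes as ribosomal proteins L41 and S26, are in neither the share nor the range.

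Chaperones (1.39% ± 0.09) and translation factors (1.17% ± 0.02) were also high, with a few genes near the floor. Hsp90ab1 stood at 18923, 25192 and 17755 normalised reads and the endoplasmic reticulum oxidoreductase Pdia3 at 17270, 15232 and 16146. Among initiation factors, Eif4h and Eif4g2 had means of 13475 ± 1697 and 14538 ± 787, while Eif4a1, with a tag at several places, had one of 7.63 ± 2.51. Hsp90ab1 also has such a tag, and of 11 translation factors with one, 8 had a mean of at least 100. Serpinh1, the collagen chaperone HSP47, stood at 11232, 13529 and 7062, with replicate 3 the lowest.

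Of the TFIID subunits, 14 of 15 in the table had a mean of at least 10 and 12 one of at least 100. Over all genes, 57.1% and 36.0% did. Taf9 (2304, 2077 and 2127 normalised reads) and Taf11 (2296, 2209 and 2292), both histone-fold subunits, were highest per kb. Taf4a came next on this scale (270 reads per kb), ahead of Taf12, the histone-fold partner of TAF4, with 1146, 901 and 1093 normalised reads. Taf6 was among the least variable genes of the table, at 541, 538.5 and 539 normalised reads. Tbp, which binds the TATA box, stood at 953, 721 and 700.

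Taf13 was the only subunit below 10, at 9, 2.5 and 2.25, and it has a tag at several places, as have Taf4a and Taf9. Taf10 was not found in the table. Taf4a held 95.4% ± 1.05 of the reads per kb of Taf4a and Taf4b, and Taf9 97.7% ± 0.37 against its paralogue Taf9b. The background estimate came to 17.8% of the mean of Taf4b. Like the level of Taf4a, its share does not check the genotype. All 18 genes of the other general transcription factors had a mean of at least 10, against 57.1% of all genes. Gtf2b (TFIIB) stood at 1278, 1105 and 1139 normalised reads.

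Hippo signalling restrains the coactivators YAP and TAZ, which act through TEAD factors. Yap1 stood at 1171, 1179 and 1161 normalised reads and Wwtr1, which encodes TAZ, at 1264, 1164 and 1016. Their levels per gene did not differ beyond the spread, and per kb Wwtr1 held 65.4% ± 2.38 of the pair. Tead3 led the TEAD factors with 50.5% ± 2.86 of their reads per kb, and Tead2 (25.7% ± 3.82), Tead1 (13.3% ± 1.58) and Tead4 (10.5% ± 0.92) followed. Per gene, Tead1 (28.2% ± 2.79) stood above Tead2 (22.7% ± 3.80).

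Among the kinases of this pathway Stk3 (MST2) stood at 2810, 2781 and 3105 and Stk4 (MST1) at 187, 197 and 169, a share of 96.6% ± 0.44 per kb for Stk3. Lats2 held 70.0% ± 1.85 of the reads per kb of Lats1 and Lats2. Of 18 known YAP and TEAD target genes, 12 had a mean of at least 100 and 6 one of at least 1000. Over all genes, 36.0% and 8.37% did. The highest were Ctgf (9583, 10902 and 8556), Cyr61 (6236, 7023 and 6504) and Axl (16747, 13471 and 14046), and Amotl2, Birc5 and Jub had means of 3847, 1143 and 1069. Ankrd1 had 14.9, 16.5 and 15.8. Hippo genes had a median CV of 7.78% over the 3 libraries, against 11% over all genes with a mean of at least 100. That level was reached by 21 of the 23 Hippo genes and by 36.0% of all genes.

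Wnt ligands were low compared with their effectors. Wnt10b (273, 260 and 234 normalised reads), Wnt10a (206, 172 and 213) and Wnt5a (248, 214 and 220) were the 3 of 19 with a mean of at least 100, and 10 had one of at least 10. Over all genes, 36.0% and 57.1% did. After subtraction of the background estimate 6 ligands were at 10 or above, and 5 reached a mean of 20 without it. Ctnnb1, encoding beta-catenin, stood at 7987, 7256 and 6070, and Ryk, a Wnt co-receptor, at 3754, 4251 and 3271. Fzd1 (1404, 1266 and 1275) led the Frizzled receptors. Sfrp2, a secreted modulator of Wnt ligands, stood at 993, 875 and 794 normalised reads and held 98.9% ± 0.04 of its family's reads per kb.

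Of the TGF-beta signalling list, 32 of 34 genes had a mean of at least 10, against 57.1% of all genes. Fstl1, a secreted follistatin-like protein, stood at 16146, 16406 and 18923 normalised reads, and Bmp4 at 2215, 2217 and 2051. Among the ligands Tgfb3 held 64.2% ± 1.97 of the reads per kb, Tgfb1 29.5% ± 2.49 and Tgfb2 6.35% ± 0.59. Grem1, a BMP antagonist, was near the floor at 1.5, 1.5 and 1.63.

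The growth factor list held Hbegf (1114, 1057 and 1487), Kitl (2132, 2021 and 1614), Fgf7 (855, 1002 and 1047) and Vegfa (950, 856 and 1240) among its highest ligands. The PDGF receptor was mainly Pdgfrb, with 82.7% ± 1.88 of the reads per kb of both receptors. Erbb2 led the EGF receptor family with 79.3% ± 6.68 per kb and 63.3% ± 9.27 per gene. The background estimate of Erbb4, a long gene, came to 115% of its mean, and that of Fgfr2 to 59.2%. With the background subtracted, Erbb2 held 94.0% per kb and the share of Fgfr2 among FGF receptors per kb went from 48.7% to 27.9%, below Fgfr1.

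In the absence of added ligand, retinoic acid receptor transcripts were those of Rarg (1299, 1346 and 998 normalised reads) and Rara (634, 615 and 683), with shares of 65.4% ± 5.42 and 31.5% ± 4.30 of the reads per kb. Rarb stood at 46.6, 31.1 and 58.4, and the background estimate for this gene came to 85.9% of its mean. Rxra (56.9% ± 2.23) and Rxrb (40.1% ± 1.44) were the retinoid X receptors. Crabp2, which carries retinoic acid to the nucleus, had 834, 869 and 776 normalised reads. The degrading enzyme genes Cyp26a1 and Cyp26c1 were below 10.

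**Figure D3:**
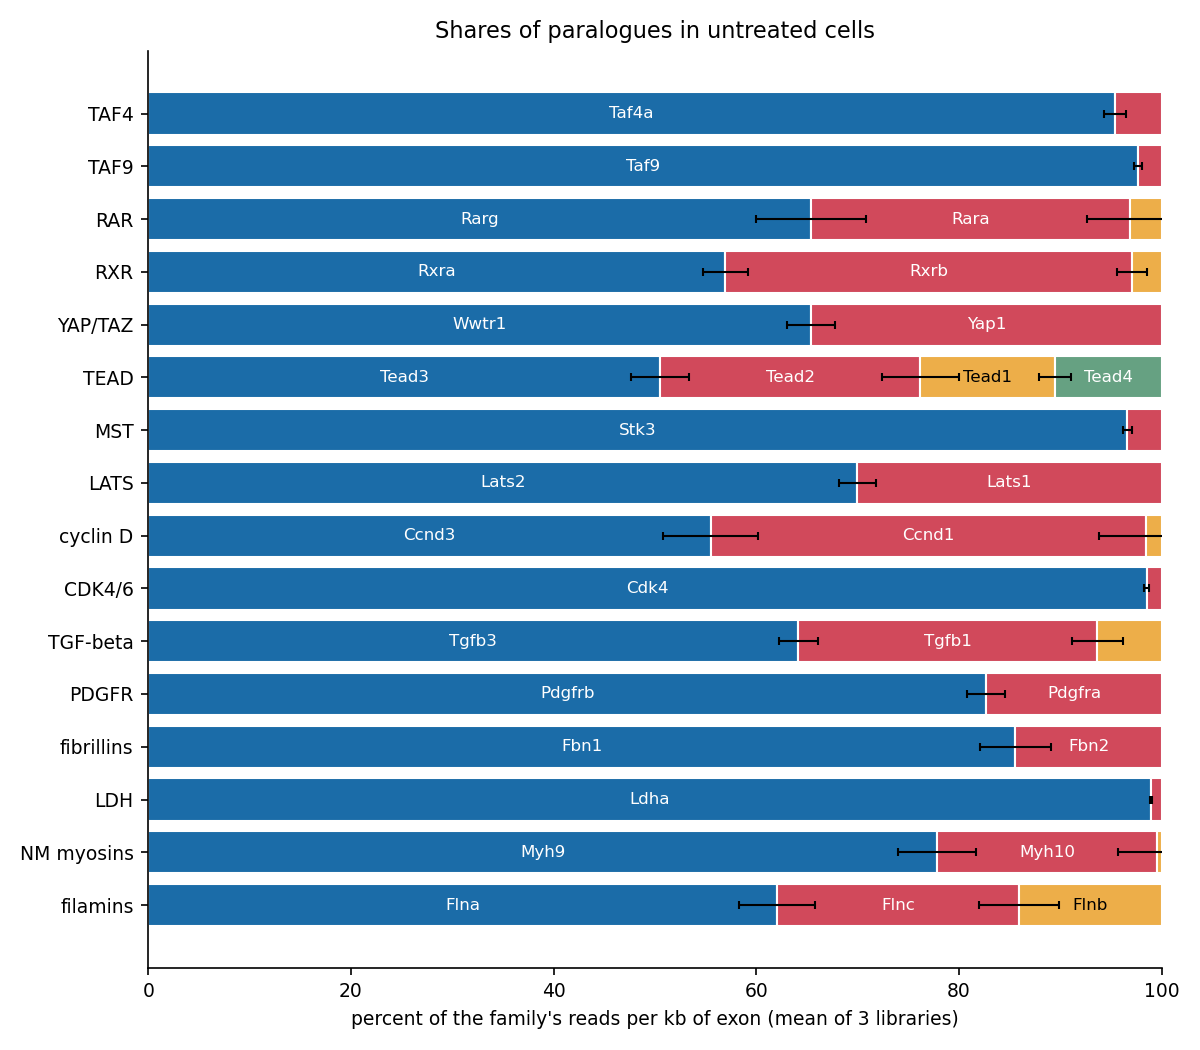
Shares of paralogues (y axis, 16 families) as percent of the summed reads per kb of exon of the family (x axis), mean of the 3 untreated libraries. Division by length lowers members with long exons, and shares per gene are not drawn. The tags of Taf4a and Taf9 occur at several places, and the share of Taf4a does not check the genotype. The bar at the right end of a coloured segment is the SD of the share of that member over the libraries; Cdk4, Ldha, Taf9, Stk3 and Taf4a each hold over 95% of their family, and TEAD factors and retinoic acid receptors are divided.

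Genes for secreted signals of inflammation included some of the higher genes of the table. Cxcl5 (6088, 6433 and 6688 normalised reads), Tnfrsf11b (8145, 7900 and 6852), which encodes osteoprotegerin, Csf1 (13844, 13987 and 12493), Ccl7 (2187, 2243 and 1686) and Ccl2 (1986, 1696 and 2063) led the chemokine and cytokine list, in which 14 of 21 had a mean of at least 10, against 57.1% of all genes. Il6 stood at 3.63, 1.00 and 3.38, and Cxcl2 and Csf2 were at 1 in all 3 libraries. Csf2 has no GATC in its transcripts. Of 24 interferon-stimulated genes, 17 had a mean of at least 10 and 0 one of at least 1000 (8.37% of all genes), with Irf3 (604 ± 85.1) and Irf9 (427 ± 58.8) the highest per gene and Psmb8 and Rsad2 near the floor.

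Imprinted genes, expressed from 1 parental allele, ranged from Gnas (22547, 26652 and 27694 normalised reads) and Grb10 (12653, 11818 and 16601) to Ndn and Nnat below 2. Plagl1 stood at 1447, 1443 and 1464. The fetal growth factor gene Igf2 was near the floor at 5.88, 4.88 and 3.88, and its neighbour H19 stood at 342, 405 and 337. The Y-linked genes Eif2s3y (669, 689 and 528), Ddx3y (232, 285 and 270), Uty and Jarid1d were present in all 3 libraries. Xist was not found in the table.

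Clustered histone genes were low except Hist1h1c (2075, 1876 and 2314 normalised reads) and Hist1h2bc (1011, 1231 and 797). Of 19 such genes, 12 were below 10, against 42.9% of all genes. Per the labels the RNA was captured by its poly(A) tail, which most replication-dependent histone transcripts lack. Of the clustered histone genes, 6 have tags at several places and 0 of these reached a mean of 100, against 1 of 11 with a tag at 1 place. The part of either in the low levels was not tested. Receptors of smell were the list with the lowest levels per gene. Of 553 olfactory and vomeronasal receptor genes 7 had a mean of at least 10, against 57.1% of all genes. They were led by V1rh17 (596, 342 and 398) and Olfr1314 (338, 252 and 184). For both of these the tag nearest to the 3′ end crosses an exon junction or is short.

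The spread between replicates depended on level up to about 100 normalised reads and little above. The median SD of log2(value + 1) was 0.39 for means from 10 to 30, 0.26 from 30 to 100, 0.17 from 100 to 300, and between 0.14 and 0.16 in all higher bands. In coefficients of variation (CV) these medians were 28.1%, 18.0% and 11.9%, and from 9.95% to 10.9% above. Of 7985 genes with a mean of at least 100, 89 (1.11%) had a highest value at least 2-fold above the lowest, against 774 of 2242 (34.5%) with means from 10 to 30. A difference of 2-fold between replicates was therefore common at low level only.

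**Figure D4:**
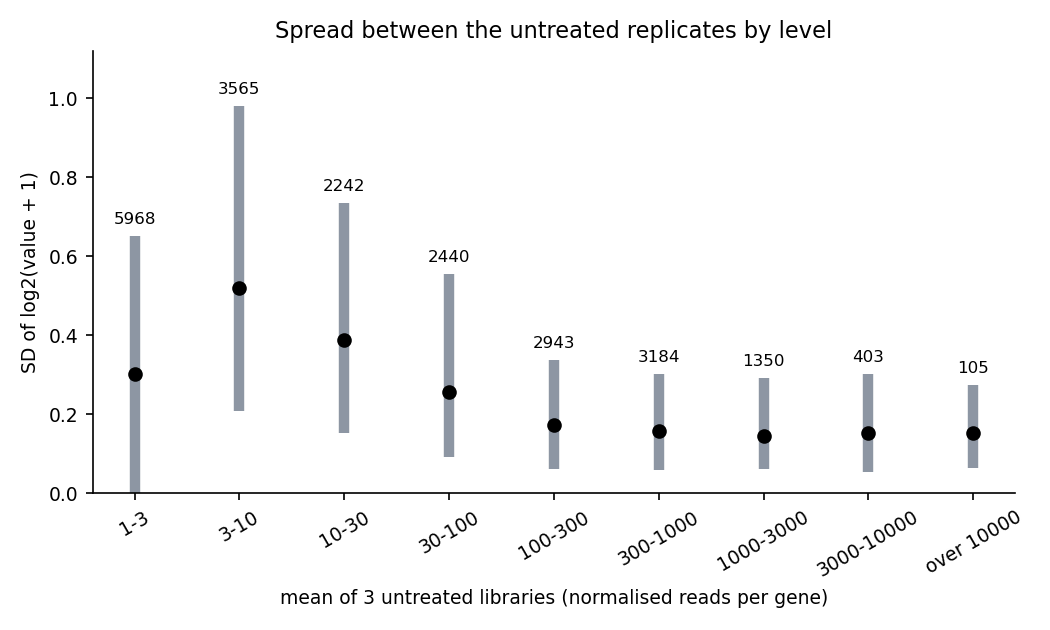
Standard deviation of log2(value + 1) over the 3 untreated replicates (y axis) by the mean level of the gene in normalised reads (x axis, 9 bands). Points are medians over genes, grey bars run from the 10th to the 90th percentile and the numbers give the genes per band; the median falls from 0.52 at means of 3 to 10 to 0.15 at means over 10000. The lowest band is held down by genes at the floor.

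The least variable genes with a mean of at least 100 were 0610011L14Rik (290, 289 and 289 normalised reads), Camsap1 (307, 307.5 and 308), Pdk3 (289, 290 and 290), Taf6, Cdc2l6, Gnb2 (4814, 4836 and 4800), Centb2, Tbc1d1, Snrk and Arpc2 (4518, 4557 and 4557). Such a short range in 3 libraries is what the lower end of 7985 genes contains, and they were chosen for it. They include a subunit of the actin-nucleating Arp2/3 complex (Arpc2) and a G protein subunit (Gnb2).

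The most variable genes with a mean of at least 100 were AL831719.6, AL844867.3, AC125115.3, Csmd1, Rbm10, Grid1, Gtpbp2, Il1rl2, AL672306.11 and Nrxn3. Replicate 3 was the highest library in 9 of these 10 and the lowest in Gtpbp2. Without replicate 3, the means of AL831719.6, AL844867.3, Csmd1, Rbm10, Grid1, Il1rl2 and AL672306.11 lay between 63.5 and 98.5. These genes thus passed the minimum of 100 only through replicate 3, whereas AC125115.3, Nrxn3 and Gtpbp2 passed it without that library. The minimum and the order by SD favour genes high in a single library, so the 9 of 10 is not a measure of replicate 3. AL831719.6 stood at 80.8, 46.3 and 196 normalised reads, AL844867.3 at 78.8, 65.8 and 242 and AC125115.3 at 136, 64.1 and 261. These 3 and AL672306.11 are annotated as processed pseudogenes, which share sequence with a parent gene, so their reads are uncertain.

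Csmd1, Grid1 and Nrxn3, known from the nervous system, span 1643, 764 and 1612 kb of the genome. Csmd1 stood at 123, 64.8 and 246 normalised reads and Nrxn3 at 140, 85.5 and 273. The background estimate came to 114% of the mean of Csmd1, 97.5% of that of Nrxn3 and 58.0% of that of Grid1. These genes are among those from which it was estimated.

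The deviation of replicate 3 from the mean of the other 2 was largest upwards, beyond the genes above, in Nrg3 (136, 120 and 335 normalised reads), another gene with a long span (1104 kb). Downwards it was largest in Gtpbp2 (104, 154 and 46.0), Cc2d1a (227, 227.5 and 107), Rbm8a (1359, 1536 and 685), Nono (1418, 1811 and 764), Gtf2h3 (160, 122 and 68.0), AC117232.3 (9354, 11447 and 5070), Mt2 (212, 289 and 122) and Ccdc71 (145, 157 and 75.3). Rbm8a and Nono encode RNA-binding proteins, and the file describes AC117232.3 as 40S ribosomal protein S26. The log2 difference was -1.44 for Gtpbp2 and between -1.08 and -1.0 for the other 7 genes.

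The spread lay along 2 axes of unequal size. With 3 libraries the within-group sum of squares has 2 components, and the first is the larger by construction. It held 71.1% of the sum of squares against 28.9% for the second, with loadings of -0.14, -0.62 and 0.77 for replicates 1, 2 and 3. Replicates 2 and 3 were thus at its ends. The deviation of a library from the mean of 3 ran with the genomic span of the gene: Spearman's rho across 12496 genes was -0.07 in replicate 1, -0.28 in replicate 2 and 0.30 in replicate 3. The deviations of the 3 libraries cancel out in each gene, so opposite signs are partly forced. Genes share the library and its scale, and no p is given. Under a minimum mean of 100 these coefficients were 0.02, -0.17 and 0.14, so that the sign for replicate 1 turned.

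By span, the difference of replicate 3 from the mean of replicates 1 and 2 had medians of -0.10 on the log2 scale for 1337 genes under 5 kb, 0.01 for 1949 genes from 50 to 100 kb, 0.33 for 727 genes from 200 to 500 kb and 0.72 for 198 genes over 500 kb. Lists differed in either direction around the -0.01 of all 12667 genes with a mean of at least 10. Among lists with at least 3 such genes, the median was highest for endothelial (0.60 over 4 genes), epithelial (0.60 over 3), cartilage and bone markers (0.38 over 4) and Wnt ligands (0.20 over 10), and it was -0.28 for cytosolic ribosomal proteins (46 genes), -0.30 for chemokines and cytokines (14), -0.37 for clustered histones (7) and -0.46 for olfactory and vomeronasal receptors (7). Some members, such as Tek (8.75, 7.13 and 20.8 normalised reads) and Alpl (11.4, 5.88 and 13.4), passed the minimum of 10 only through replicate 3. In the 4 endothelial genes the background estimate came to between 40.1% (Cdh5) and 112% (Tek) of the mean. The high medians of these short lists are thus not a result about their genes. The part of RNA quality or library preparation in the first component was not tested.

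**Figure D5:**
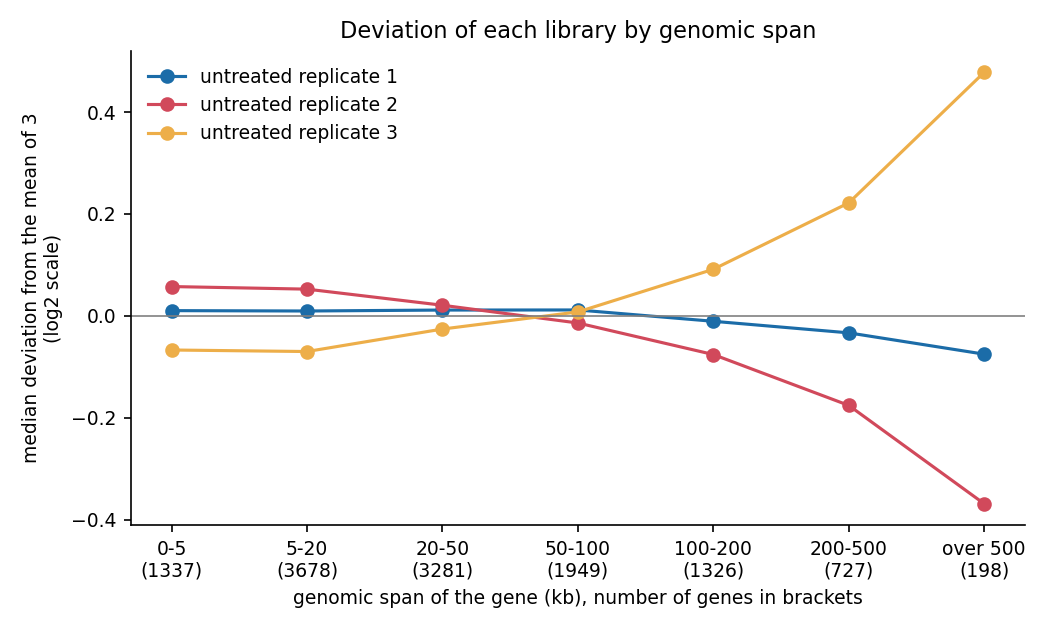
Median deviation of each untreated library from the mean of the 3 (y axis, log2 scale) for genes grouped by genomic span (x axis, kb, number of genes in brackets), over genes with a mean of at least 10. Replicate 3 rises to 0.48 and replicate 2 falls to -0.37 in genes over 500 kb, while replicate 1 stays between -0.08 and 0.01.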

How the data were processed

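The values are normalised reads, a signal and not counts, deposited by the authors for each Ensembl gene with decimal commas. The values were quantile normalised over the 8 libraries: the sorted columns were identical. Per the labels, DpnII tag libraries of polyadenylated RNA gave reads of 18 bases. The study's methods describe fragmented RNA, Tophat on mm9 and Cufflinks. For normalisation they name DESeq and do not mention quantiles, so they differ from the table on this point too. The table also holds group averages and log2 ratios between groups, which are the authors' comparisons and were not used. A total of 1 line without a gene was left out.

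Only the untreated columns entered the analysis (Python 3.11.15, pandas 2.3.3, numpy 2.4.6). Gene positions, exon lengths and tags came from the mm9 annotation (21465 of 22200 identifiers, 96.7%). A gene was counted as measured from a mean of 10, logs were log2(value + 1), and order per kb required 0.3 kb of exon. Where a symbol had several genes, the one with the highest mean was taken. The background estimate was the 25th percentile of reads per Mb over genes of at least 200 kb. Promoters were not described, because 71 of the 100 highest genes per kb had a sequence, under the 80% required. The summaries were checked on simulated libraries. The genes named are Taf4a and Taf4b, the 20 highest by reads per gene and per kb, up to 8 of the highest and 4 of the lowest members of each list, family members, the 10 most and 10 least variable, and the 8 genes with the largest deviation of replicate 3 each way. Others named were chosen after their values were seen. Members and lists were chosen with earlier results of these data known. Alternatives left out each replicate, subtracted background, and changed pseudocount, minimum, summary, length and tag length (the last chosen after seeing the data). Some genes that these rules name are not reported here.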

Additional observations from a re-analysis of the deposited data

How the results depend on the processing

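No paired analysis was possible because 1 group was described and nothing was compared between groups. The number of genes with a mean of at least 10 (12667) lay between 12642 and 12687 without 1 replicate, was 12656 by the median and 11484 with the background estimate subtracted. Each library held 12697 genes at or above 10 by the common scale, so the narrow range without 1 replicate reflects that scale in part. The median SD of log2 values (0.20) was 0.25 without a minimum and 0.16 at a minimum mean of 100, and ranged from 0.13 to 0.20 without 1 replicate, the lowest without replicate 3. The lowest Spearman's rho between replicates (0.981) was 0.957 without a minimum and 0.970 at a minimum mean of 100, and ranged from 0.981 to 0.991 without 1 replicate. The first component held 72.7% with a pseudocount of 10, 60.0% without a minimum and 73.2% at a minimum mean of 100. The rho of deviation with span at a pseudocount of 10 was -0.070, -0.275 and 0.293 in replicates 1, 2 and 3, and at a minimum mean of 100 it was 0.0163, -0.167 and 0.138; the cause of the turn in replicate 1 was not tested. Shares of reads by class moved by less than 1 SD without any 1 replicate. With 3 values this limit cannot be passed, so it is no check on the shares. Reads per gene in place of reads per kb moved the median percentile of 34 of 43 lists by more than the SD over libraries, and the length of the longest transcript moved 18. By the same measure, reads per gene moved the share of the leading member in 17 of 27 families, and the length of the longest transcript moved 15. Depth is unknown, so low values carry no counting interval.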

Other observations

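The proteasome, which degrades ubiquitin-tagged proteins, was expressed at high level, with 33 of 38 subunit genes at a mean of at least 10, 21 at a mean of at least 1000 and a median at the 92.0th percentile of reads per kb. Over all genes, 57.1% reached a mean of 10 and 8.37% one of 1000. Psmb4 and Psmc6 were the highest subunit genes per gene, with means of 8340 and 6056 normalised reads. Psmb8 and Psmb9, the immunoproteasome subunits known to be induced by interferon, stood at 1.42 and 4.58, and Psmb1 and Psma5, which belong to the constitutive particle, at 6.21 and 9.

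Among genes known to respond to p53, Bax and Mdm2 had means of 941 and 663 normalised reads, and Cdkn1a, which encodes the kinase inhibitor p21, one of 35.8. Myc stood at 524 and Mycn at 2.58. In the adipocyte list Pparg had a mean of 92.1, Cebpa one of 34.9 and Adipoq one of 2.25. These genes were chosen after their values were seen.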
